A study of Rattus norvegicus with 20 samples.

Results

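Estrogen acts on the artery wall mainly through a pair of nuclear receptors, ERα (gene Esr1) and ERβ (Esr2), and a membrane receptor, GPER (Gper1). Bound to hormone, the nuclear receptors dimerise and bind estrogen response elements in DNA, and they recruit coactivators or corepressors there. In the uterus, pituitary and breast the classic read-outs of that activity are the progesterone receptor (Pgr), the oxytocin receptor (Oxtr), the corepressor RIP140 (Nrip1) and the growth regulator Greb1. In arteries, estrogen receptors occur in both endothelium and smooth muscle, where estrogen is known to favour vasodilatation. These 7 genes were followed across all treatment groups in mesenteric arteries, and a member was every probe whose annotation gave its symbol alone. The rule found 10 probes among 35129, for 6 of 12199 genes: 2 each for Esr1, Esr2, Pgr and Oxtr, and 1 each for Gper1 and Nrip1. Greb1 had no probe under the rule and is not analysed here.

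RNA came from the mesenteric arterial tree of female Sprague Dawley rats, dissected free of veins and fat, with 1 single-colour CodeLink array for each rat and 20 arrays in all. All rats, controls included, had been ovariectomised before puberty, at 4 weeks of age, and were left to recover for 2 weeks. They then received a daily gavage for 3 weeks, up to 9 weeks of age, of 1 of 6 preparations: the vehicle 2-hydroxypropyl-β-cyclodextrin (4 rats), ethinyl estradiol (3 rats), estradiol benzoate (3 rats), equilin (3 rats), tamoxifen (4 rats) or raloxifene (3 rats). The 3 estrogens were given at 0.15 mg/kg per day and the 2 selective estrogen receptor modulators (SERMs) at 3 mg/kg per day. Ethinyl estradiol is estradiol with an ethynyl group, estradiol benzoate is an ester that releases estradiol, and equilin is an equine estrogen with an unsaturated B ring. Tamoxifen and raloxifene block or activate estrogen receptors depending on the tissue. The aim stated for the study was to compare these agents in the artery. No group kept its ovaries, so every value describes hormone replacement or SERM treatment in animals without ovarian hormones.

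The deposited value was a linear, background-subtracted intensity scaled for each array, with array medians from 1.0007 to 1.0612. The labels name no batch, but the arrays formed 2 sets. Set A held vehicle array 1 and all 9 estrogen arrays, with medians of at least 1.0408; set B held vehicle arrays 2 to 4 and all 7 SERM arrays, with medians up to 1.015. The sets were also separated by 384 unnamed, regularly spaced probes. A difference between estrogens and SERMs therefore cannot be told apart from a difference between array sets except through the vehicle arrays, of which set A holds 1. Each comparison of an estrogen with vehicle shares this limit, because vehicle arrays 2 to 4 lie in set B. Raloxifene array 3 stood apart from all others, with a mean correlation of 0.841 to the other arrays against 0.919 to 0.959 for the rest. Most smooth muscle markers fitted the labelled tissue: Myh11, Tagln, Cnn1 and Smtn ranked at the 100th, 99.9th, 99.3rd and 92.8th percentile of probe intensity. Lmod1 lay at 82.1% and Acta2 at 46.6%. Adipocyte markers other than Lep (34.2%) were bright as well, with a median rank of 99.7% for the list, although the arteries had been cleared of fat. Pancreatic acinar markers varied widely between arrays. Their summed intensity was 9.4 to 98.2 on the vehicle arrays and 3.06 to 683 under ethinyl estradiol. It was 5.07 to 12.8 under estradiol benzoate, 5.58 to 9.58 under equilin, 15.7 to 99.1 under tamoxifen and 1.56 to 20 under raloxifene. The part of neighbouring tissue in the member readings was not tested. Because this is bulk tissue, fewer cells of a type and less RNA per cell cannot be told apart.

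All member probes were read on every array with a value above 0, but none was bright. Ranked by mean log2 intensity over all arrays, the Esr2 probes lay at 57.9% and 45.8%, the better Pgr probe at 45.8%, the better Oxtr probe at 45.2%, the Gper1 probe at 42.6% and the better Esr1 probe at 41.9%. The second probes of Esr1, Oxtr and Pgr lay at 20.9%, 19.5% and 18.5%, and the only Nrip1 probe at 15.6%. Probes in the lowest 30% were left out of the tests, which kept 6 of the 10 member probes for 5 genes, among 24562 probes tested. Rank describes a probe and not the gene's transcript level: the brightest probe of Acta2, an abundant smooth muscle actin, lay at 46.6%, among the receptor probes.

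**Figure D1:**
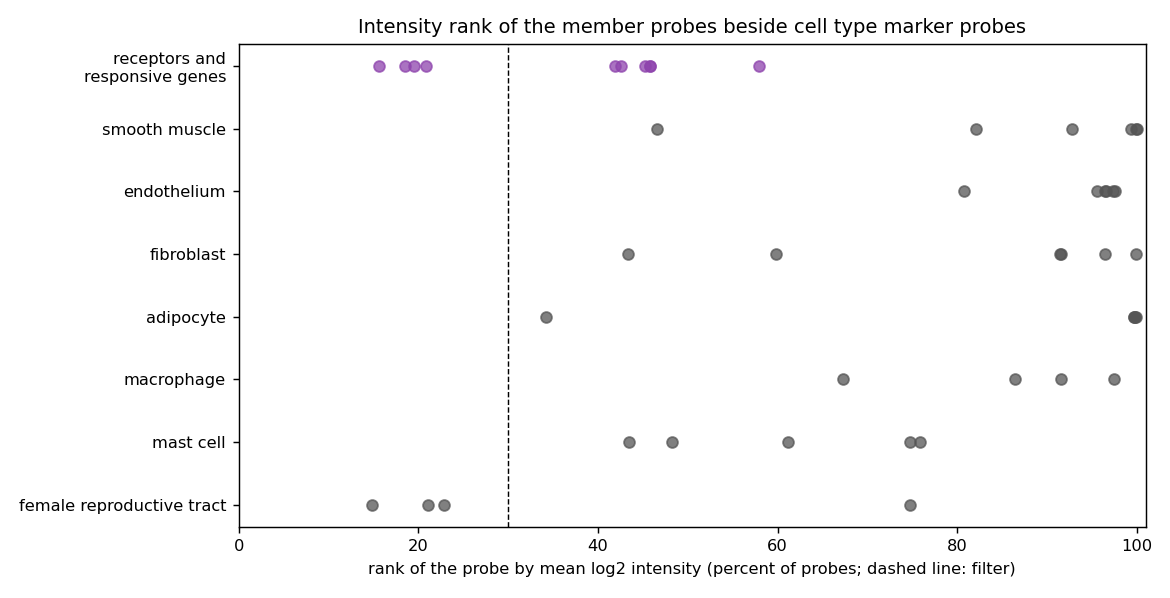
Rank of each probe by mean log2 intensity (x axis, percent of probes), with the receptors and responsive genes in the top row and marker genes of the cell types the dissection could hold below. The dashed line is the filter at 30%: 4 member probes lie below it, and the other 6 lie between 41.9% and 57.9%, while most vascular markers lie above 80%.

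Probes of this brightness were called in the equilin group, though their share includes the regularly spaced probes. A probe was called, and is said to have risen or fallen, when its Benjamini-Hochberg adjusted p in limma was under 0.05. Under equilin, 4.79% of probes ranked between 40% and 50% were called, against 2.81% of those above 80%. Median standard errors in these bands were 0.234 and 0.249 on the log2 scale. Over all ranks, 3.69% of probes were called under equilin, and 1.15% without the regularly spaced probes. The shares by band were not computed without them, so they do not show how often other probes of this brightness were called. For the 6 tested member probes, the 95% confidence interval (CI) of a change from vehicle reached 0.30 to 0.56 to either side of the estimate, and 0.28 to 0.52 under tamoxifen. With 3 or 4 rats, a change smaller than about that size has an interval that includes 0. A call at an adjusted p under 0.05 took a larger change. Changes of 0.44 for Pgr under equilin and 0.56 for Esr2 probe 2 under ethinyl estradiol had intervals above 0 and were not called.

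Across the comparisons of each compound with vehicle, Oxtr under equilin was the only member probe that changed. It made 1 of 6 member probes called under equilin, where 3.69% of all tested probes were called. Under ethinyl estradiol, estradiol benzoate, tamoxifen and raloxifene limma called 0 of 6, against 1.2%, 0.7%, 0.224% and 2.04% of all probes. Part of these shares came from the regularly spaced probes. Without them limma called 0 of 6 under each compound. The shares of all probes were then 1.15% under equilin, 0.677% under ethinyl estradiol and 0% under estradiol benzoate. They were 0.239% under tamoxifen and 2.25% under raloxifene. At an unadjusted p under 0.05 the member counts were 2 under equilin, 1 under ethinyl estradiol, 1 under raloxifene, and 0 under estradiol benzoate and tamoxifen, where 21.4%, 13.9%, 27.6%, 7.69% and 8.97% of all probes had one. These counts are too few to set apart from those shares. Over all probes, the median change from vehicle was -0.17 under equilin and -0.12 under estradiol benzoate, and -0.01 and 0.00 after quantile normalisation. Relative to that median, Oxtr was higher by 1.15 under equilin. The median change of the 6 member probes was 0.25 under equilin and 0.19 under raloxifene, where the median of all probes was -0.02. The comparisons share the vehicle arrays. Without raloxifene array 3 the member changes under raloxifene ran from -0.20 for Esr1 to 0.47 for Esr2 probe 2. Limma then called 0 of 6, against 0.057% of all probes.

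**Figure D2:**
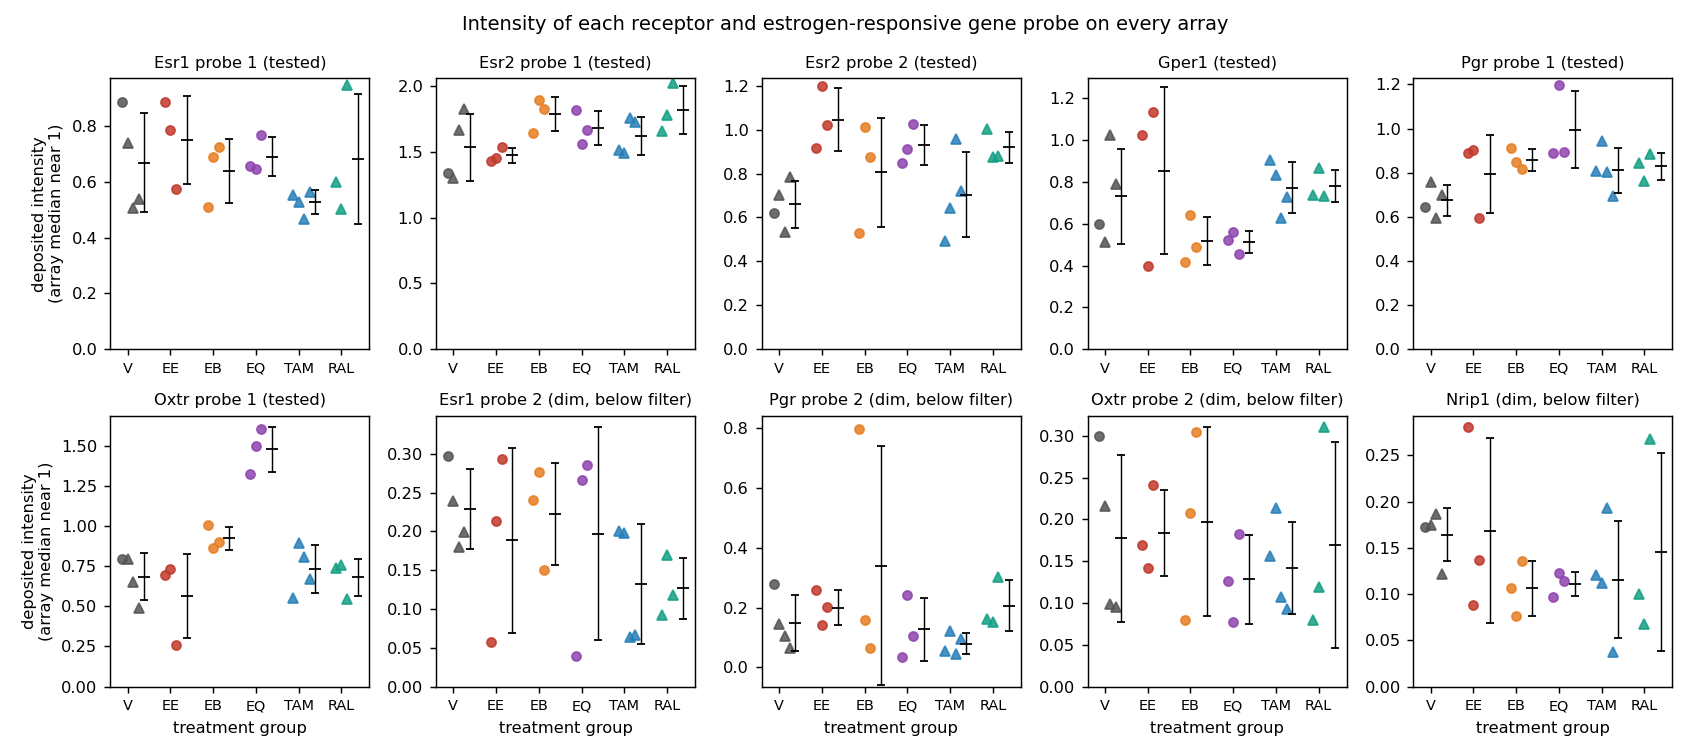
Deposited intensity (y axis, array median near 1) of each member probe on each array, by treatment group (V vehicle, EE ethinyl estradiol, EB estradiol benzoate, EQ equilin, TAM tamoxifen, RAL raloxifene). Circles are arrays of set A and triangles of set B, and black bars are group means ± SD; for Oxtr probe 1 the 3 equilin arrays, from 1.32 to 1.6, lie above all other arrays.

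Among the receptors, Esr1 showed no detectable change with any compound. Its tested probe read 0.886, 0.741, 0.508 and 0.539 on the vehicle arrays. It read 0.886, 0.788 and 0.577 under ethinyl estradiol, 0.508, 0.688 and 0.725 under estradiol benzoate, and 0.658, 0.645 and 0.770 under equilin. The estrogen arrays thus filled the same range as the vehicle arrays. Tamoxifen arrays read 0.552, 0.526, 0.466 and 0.563, and raloxifene arrays 0.602, 0.503 and 0.947. Tamoxifen had the lowest group mean, 0.527 ± 0.044 (SD, n = 4), but overlapped vehicle, 0.668 ± 0.178 (SD, n = 4). The change under tamoxifen was -0.26 ± 0.19 (log2, SE; CI -0.67 to 0.14; limma adjusted p = 0.729). The estrogen class mean differed from vehicle by 0.02 (CI -0.32 to 0.36), a direction that turned with quantile normalisation. With a block for array set, in which vehicle array 1 is the only control of the estrogens, the changes of Esr1 under ethinyl estradiol, estradiol benzoate and equilin were -0.23, -0.43 and -0.33, with intervals that all included 0. Ordered by mean, Esr1 ran from ethinyl estradiol through raloxifene, equilin, vehicle and estradiol benzoate to tamoxifen, and each group overlapped the next. The dim second Esr1 probe read between 0.0399 and 0.297 and was not called against vehicle without the filter on dim probes.

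Esr2 had 2 tested probes, and they did not order the groups alike. The brighter one read 1.34, 1.30, 1.67 and 1.82 on the vehicle arrays. It read 1.43, 1.46 and 1.54 under ethinyl estradiol, 1.65, 1.89 and 1.83 under estradiol benzoate, 1.82, 1.56 and 1.67 under equilin, 1.51, 1.49, 1.76 and 1.73 under tamoxifen, and 1.66, 1.78 and 2.02 under raloxifene. Every group overlapped vehicle, and the 5 changes ran from -0.08 under ethinyl estradiol to 0.25 under raloxifene. This was the most precisely measured member probe: under ethinyl estradiol the interval was -0.38 to 0.22 and under equilin -0.21 to 0.39.

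The other Esr2 probe read 0.620, 0.701, 0.532 and 0.785 on the vehicle arrays. It read 0.914, 1.20 and 1.02 under ethinyl estradiol, 0.530, 1.01 and 0.874 under estradiol benzoate, and 0.846, 0.914 and 1.03 under equilin. Ethinyl estradiol and equilin arrays all lay above vehicle, while 1 estradiol benzoate array lay below it. SERM arrays read 0.494, 0.644, 0.957 and 0.718 under tamoxifen and 1, 0.877 and 0.881 under raloxifene, so that raloxifene also cleared vehicle. The change under ethinyl estradiol was 0.56 ± 0.21 (SE; CI 0.12 to 1.0), with an unadjusted p of 0.016 and a limma adjusted p of 0.232. Changes under raloxifene, equilin, estradiol benzoate and tamoxifen were 0.44, 0.40, 0.18 and 0.07, with adjusted p of 0.178, 0.278, 0.896 and 0.954. None passed. Without raloxifene array 3 the raloxifene value was 0.47, with an adjusted p of 0.425. For ethinyl estradiol the first Esr2 probe gave -0.08, a value near 0 whose sign was not stable: it was 0.13 with the array set as a block and 0.01 without vehicle array 4. The sequences each probe detects were not used here.

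Gper1, the membrane receptor, read 0.597, 0.514, 1.02 and 0.788 on the vehicle arrays. It read 1.03, 0.396 and 1.14 under ethinyl estradiol, 0.417, 0.642 and 0.490 under estradiol benzoate, and 0.521, 0.562 and 0.455 under equilin. The estradiol benzoate and equilin arrays all lay below the vehicle mean of 0.731, and ethinyl estradiol held both its lowest and its highest array. Tamoxifen arrays read 0.905, 0.833, 0.625 and 0.728, and raloxifene arrays 0.739, 0.869 and 0.732, inside the vehicle range. The changes under estradiol benzoate and equilin were -0.45 ± 0.27 (SE) each, with adjusted p of 0.765 and 0.338, and those of the other compounds were 0.09 to 0.13. With the array set as a block both were -0.20, and without vehicle array 3 both were -0.29. Estrogens as a class stood 0.38 below SERMs as a class (log2 change -0.38 ± 0.18, SE; CI -0.76 to -0.01; unadjusted p = 0.0438, limma adjusted p = 0.144). In that comparison 0 of 6 member probes were called against 18.7% of all probes, and 1 of 6 had an unadjusted p under 0.05 against 31.6%. The classes lie in different array sets, and with the array set as a block the Gper1 difference was -0.05 ± 0.44 (SE); without ethinyl estradiol array 2 it was -0.25.

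Pgr and Oxtr, the responsive genes with a tested probe, are described with the 250 bases before their annotated starts (RefSeq, rat GRCr8), because estrogen receptors bind the arms GGTCA and TGACC of the response element. Capitals mark either arm, searched on both strands. The windows are chr4:147170500-147170749 on the minus strand for Oxtr and chr8:14354148-14354397 on the plus strand for Pgr.
Oxtr: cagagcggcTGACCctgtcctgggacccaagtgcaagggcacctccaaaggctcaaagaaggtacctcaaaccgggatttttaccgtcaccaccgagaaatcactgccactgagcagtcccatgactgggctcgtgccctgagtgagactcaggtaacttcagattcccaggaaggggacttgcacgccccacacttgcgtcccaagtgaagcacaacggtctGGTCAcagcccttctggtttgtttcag
Pgr: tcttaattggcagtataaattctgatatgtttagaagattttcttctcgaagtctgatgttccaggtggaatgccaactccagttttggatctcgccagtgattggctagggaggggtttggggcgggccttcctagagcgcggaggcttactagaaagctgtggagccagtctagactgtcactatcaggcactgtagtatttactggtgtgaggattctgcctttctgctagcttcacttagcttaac

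The Oxtr window held 2 arms, TGACC at 241 and GGTCA at 27 bases before the start, and the Pgr window held 0. Of the other members in the table, Esr2 held 2 (GGTCA at 211 and 49 bases before the start), and Esr1 and Nrip1 held 0. The whole palindrome GGTCANNNTGACC was in none of the 5 windows, as in nearly all promoters: 0.0239% of 33469 promoters held it, and 35.4% held at least 1 arm. An arm is thus a common letter match and no evidence of a site. The annotated Oxtr gene reaches further upstream than this start, and whether the window holds a promoter in use was not tested.

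Oxtr, the G protein-coupled receptor for oxytocin and a contraction-linked estrogen target in the uterus, was higher in equilin-treated arteries. Vehicle arrays read 0.793, 0.796, 0.654 and 0.489. Equilin arrays read 1.32, 1.5 and 1.6. All 3 equilin arrays lay above the highest vehicle array and above every array of the other groups. The mean was 1.47 ± 0.14 (SD, n = 3) against 0.683 ± 0.145 (SD, n = 4), a fold of 1.97 on the log2(intensity + offset) scale. The change was 0.98 ± 0.24 (SE; CI 0.46 to 1.49; limma adjusted p = 0.0336). In the test of any compound against vehicle, Oxtr was the 1 member probe of 6 that passed (adjusted p = 0.0323), where 8.84% of all probes did; that call ended without any 1 of 7 arrays.

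The other compounds did not raise Oxtr past the threshold. Estradiol benzoate arrays read 1, 0.864 and 0.899, all above vehicle, with a change of 0.36 ± 0.24 (SE; CI -0.16 to 0.87; adjusted p = 0.82). Ethinyl estradiol arrays read 0.694, 0.733 and 0.262, with a change of -0.35 ± 0.24 (SE; CI -0.86 to 0.16; adjusted p = 0.555). Ethinyl estradiol thus had the lowest mean of all groups, through array 3, the lowest of the 20 arrays for this probe; without that array the change from vehicle turned to 0.03. Tamoxifen arrays read 0.553, 0.892, 0.808 and 0.668, and raloxifene arrays 0.737, 0.758 and 0.547, with changes of 0.09 (CI -0.38 to 0.57) and 0.02 (CI -0.50 to 0.53). The SERM arrays lay near vehicle. The dim second Oxtr probe, which the annotation ties to another sequence record, showed no such pattern: it read 0.126, 0.0768 and 0.183 under equilin and 0.3, 0.216, 0.0984 and 0.0948 on the vehicle arrays. At that brightness its readings varied about as much within groups as between them.

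The equilin call for Oxtr was close to the threshold. Its direction held under every setting tried, with a change of 0.85 to 1.05 when any single array was left out, but the call ended (adjusted p 0.0541 to 0.161) without vehicle array 3 or 4 or any 1 of the equilin arrays. With the array set as a block the change was 0.81 ± 0.37 (SE; CI 0.01 to 1.6; adjusted p = 0.627), and without the regularly spaced probes the adjusted p was 0.057.

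**Figure D3:**
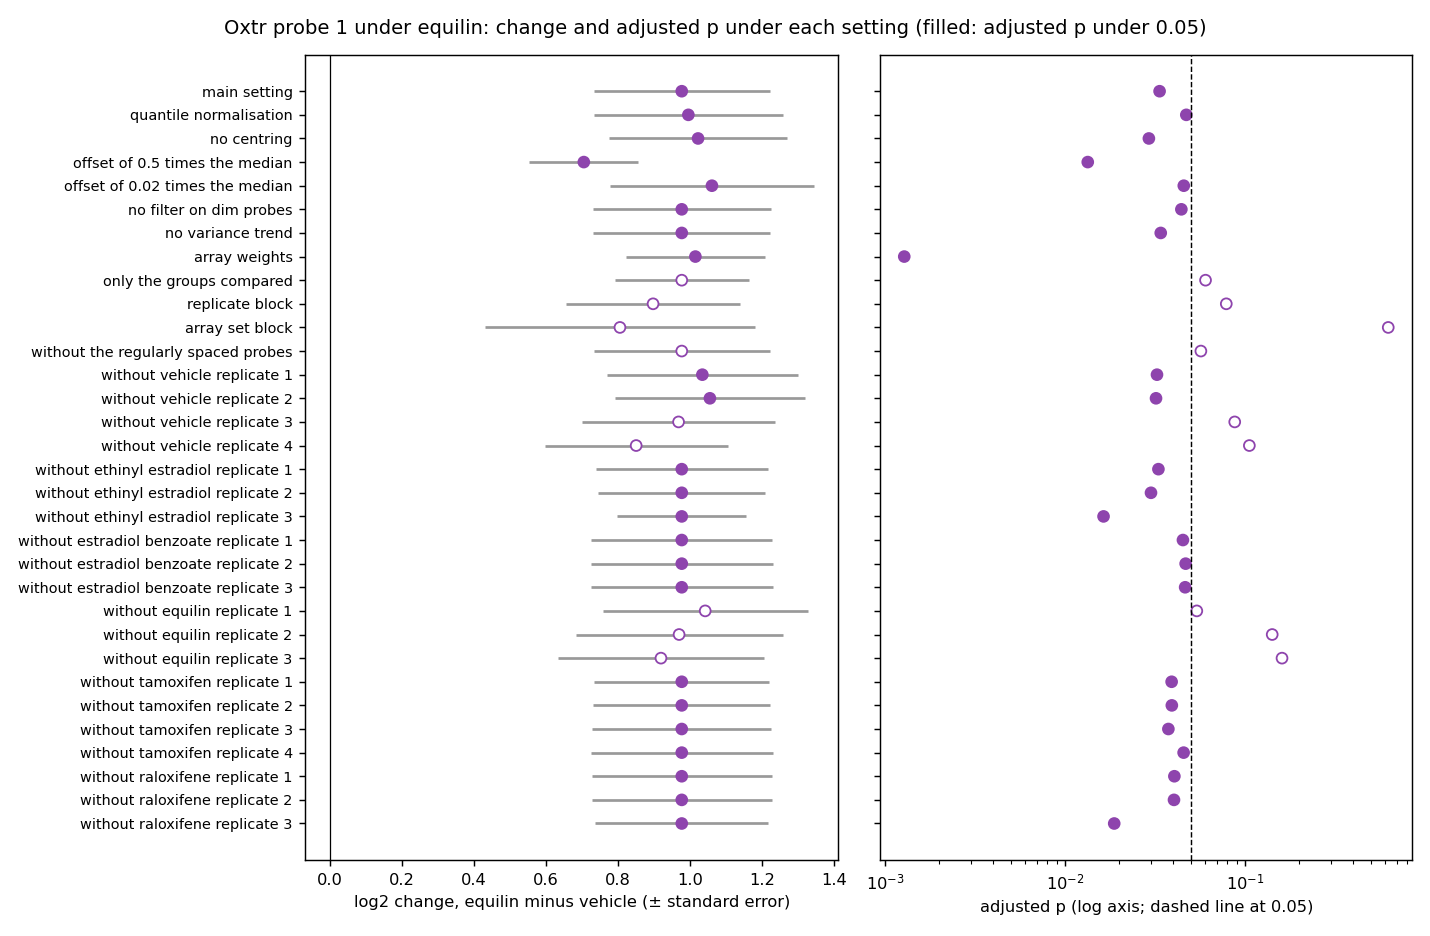
Change of Oxtr probe 1 under equilin (left, log2 with standard error) and its adjusted p (right, log axis, dashed line at 0.05) under each processing setting, one per row, with filled points for calls. The change stays above 0 in every row, and the adjusted p lies on both sides of the line, at 0.0336 in the main setting and 0.627 with the array set as a block.

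Cell type markers also differed between the equilin and vehicle arrays, which lie mostly in different array sets (vehicle array 1 alone is in set A). Summed intensity of the 4 macrophage markers was 69.8 to 74.9 under equilin against 82.9 to 129 on the vehicle arrays, that of the 5 mast cell markers 11.5 to 11.9 against 14.0 to 16.4, and that of the 6 fibroblast markers 230 to 279 against 304 to 352. These ranges did not overlap. This was not particular to equilin: under ethinyl estradiol the mast cell (8.42 to 11.6) and fibroblast sums (246 to 300) also lay wholly below vehicle. The macrophage sum under ethinyl estradiol (65.2 to 88.9) overlapped vehicle. The sums of smooth muscle (6 markers, 584 to 672 against 670 to 860), endothelium (6 markers, 193 to 232 against 221 to 268) and adipocyte markers (5 markers, 579 to 616 against 420 to 587) did overlap. A sum is weighted towards the brightest markers, and the mean log2 level over a list split otherwise: smooth muscle (4.50 to 4.61 against 4.72 to 5.06) and endothelium (4.56 to 4.69 against 4.76 to 4.98) lay wholly below vehicle under equilin, while fibroblast (3.14 to 3.58 against 3.25 to 4.08) overlapped. Other compounds shared parts of this. Smooth muscle lay wholly below vehicle under estradiol benzoate by sum (488 to 649) and mean log2 (4.52 to 4.68). By sum it also did under tamoxifen (479 to 644), as endothelium did under raloxifene (200 to 220). Mast cell mean log2 was 1.12 to 1.24 on the vehicle arrays. It was wholly lower under estradiol benzoate (0.81 to 1.09) and tamoxifen (0.52 to 1.03). No marker of these lists read at or below 0. The 4 probes of female reproductive tract genes, a tissue where Oxtr and Pgr are abundant, had a median rank of 22%. Msx1 lay at 74.7%, and Pax8, Hoxa11 and Emx2 at 14.8%, 21.1% and 22.9%. These ranks do not give transcript levels. The part of cell composition in the Oxtr result was not tested.

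Pgr, the nuclear receptor for progesterone and a classic estrogen target, showed a smaller shift that did not pass. Its tested probe read 0.644, 0.759, 0.596 and 0.700 on the vehicle arrays. It read 0.887, 0.903 and 0.592 under ethinyl estradiol, 0.913, 0.849 and 0.814 under estradiol benzoate, and 0.891, 1.20 and 0.895 under equilin. All estradiol benzoate and equilin arrays lay above vehicle, and 1 ethinyl estradiol array lay below it. SERM arrays read 0.806, 0.942, 0.804 and 0.693 under tamoxifen and 0.842, 0.763 and 0.883 under raloxifene. The raloxifene arrays also lay above vehicle in deposited intensity, by a narrow margin (0.763 against 0.759). On the centred log2 scale of the tests they overlapped vehicle (raloxifene array 2 at -0.362, vehicle array 2 at -0.357). The change under equilin was 0.44 ± 0.16 (SE; CI 0.11 to 0.78), with an unadjusted p of 0.0127 and a limma adjusted p of 0.124. Changes under the other 4 compounds were 0.15 to 0.27, with adjusted p of 0.266 or more. Estrogens as a class differed from vehicle by 0.29 ± 0.13 (SE; adjusted p = 0.246) and SERMs by 0.26 ± 0.13 (SE; adjusted p = 0.278). Limma called 0 of 6 member probes for either class, against 2.61% and 0.574% of all probes. At an unadjusted p under 0.05 the counts were 2 and 0 of 6, against 17.7% and 20.4%. With array weights, which called 30.8% of all probes, the equilin change was 0.62 (adjusted p = 0.00484), and with the array set as a block 0.54 (CI 0.02 to 1.05; adjusted p = 0.609). The dim second Pgr probe read between 0.0352 and 0.798, the highest being estradiol benzoate array 1, and was not called against vehicle without the filter.

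**Figure D4:**
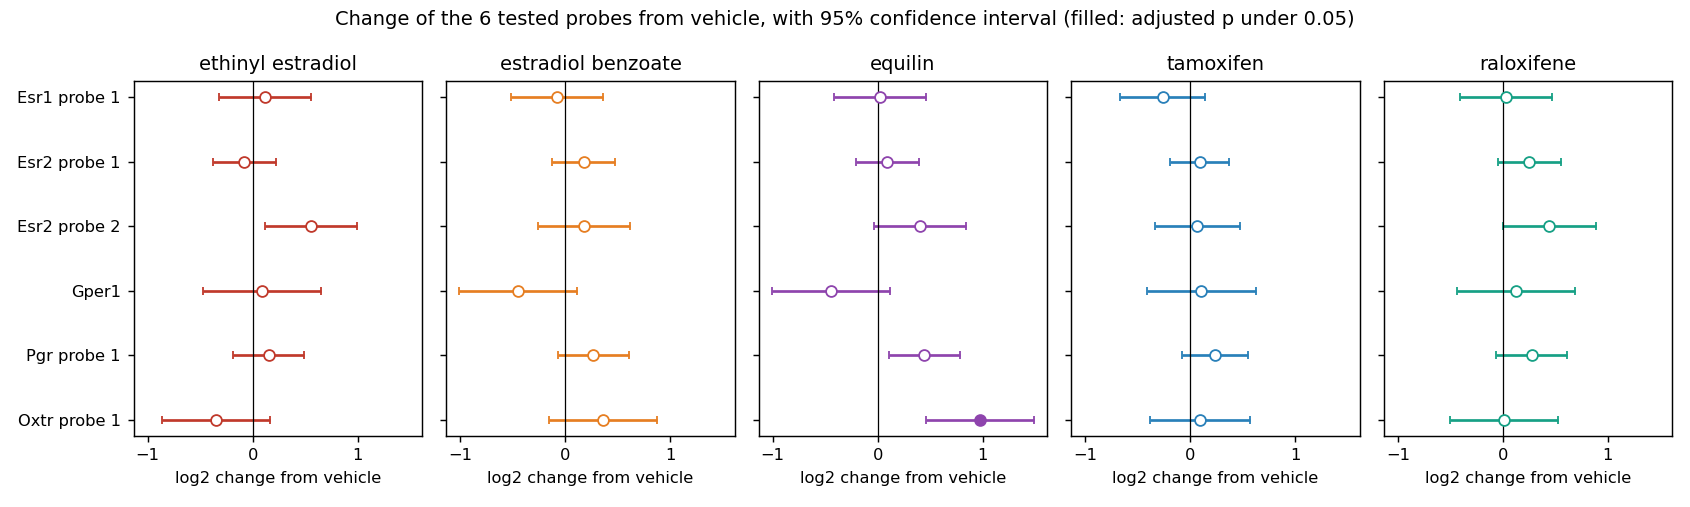
Change of the 6 tested member probes from vehicle (x axis, log2) under each compound, with 95% confidence intervals and a filled point where the adjusted p was under 0.05. Oxtr under equilin, at 0.98, is the only filled point; Pgr under equilin and Esr2 probe 2 under ethinyl estradiol and raloxifene have intervals above 0 but did not pass.

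Arrays of several member probes separated from vehicle, and of these only Oxtr under equilin was called. Under equilin the arrays of 3 of 6 member probes (Esr2 probe 2, Pgr and Oxtr) lay wholly above vehicle, where 8.77% of all probes did. The counts were 2 of 6 (Pgr and Oxtr) under estradiol benzoate against 4.98%, 1 of 6 (Esr2 probe 2) under ethinyl estradiol against 6.89%, and 2 of 6 (Esr2 probe 2 and Pgr) under raloxifene against 6.08%. Tamoxifen had 0 of 6 against 2.2%. These counts and shares use deposited intensity. On the centred log2 scale the Pgr arrays under raloxifene overlapped vehicle. The estrogen arrays are all in set A and vehicle arrays 2 to 4 in set B, so any difference between the sets enters the estrogen counts. Chosen as they were for their known link to estrogen, 6 probes for 5 genes give a small base for reading these shares.

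Nrip1, a corepressor induced by estrogen in breast and uterus, was represented by a single probe near the bottom of the range. It read 0.172, 0.175, 0.187 and 0.122 on the vehicle arrays. It read 0.0970, 0.123 and 0.114 under equilin, 0.107, 0.0768 and 0.136 under estradiol benzoate, and 0.280, 0.0888 and 0.137 under ethinyl estradiol. Under tamoxifen it read 0.120, 0.112, 0.193 and 0.0376, and under raloxifene 0.101, 0.0678 and 0.267. Vehicle had the highest mean, but each group overlapped the next in order. Nrip1 was not called against vehicle without the filter on dim probes. There 0.693%, 0.482%, 2.04%, 0.145% and 0.316% of all probes were called under ethinyl estradiol, estradiol benzoate, equilin, tamoxifen and raloxifene, and none of the 4 dim member probes. These readings lie near the offset of 0.103 and carry little information on this gene.

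Between the estrogens, all given at the same dose and time, Oxtr was again the member that differed. Ethinyl estradiol lay below equilin by 1.33 (log2 change -1.33 ± 0.26, SE; CI -1.88 to -0.78; limma adjusted p = 0.0488), with no overlap. This was 1 of 6 member probes, against 0.175% of all probes called in that comparison; all 6 arrays are in set A. The call held when 3 of the 20 arrays were left out in turn and ended for the other 17; without ethinyl estradiol array 3, the lowest reading, the difference was -0.94 (adjusted p = 0.114). It also ended under quantile normalisation. Ethinyl estradiol lay below estradiol benzoate by 0.71 (log2 change -0.71 ± 0.26, SE; CI -1.26 to -0.16; adjusted p = 0.37), and estradiol benzoate below equilin by 0.62 (log2 change -0.62 ± 0.26, SE; CI -1.17 to -0.07; adjusted p = 0.999). Neither passed, although the 3 groups did not overlap on this probe. Limma called 0 of 6 member probes in each of these comparisons, against 0.281% and 0% of all probes. At an unadjusted p under 0.05 the count was 1 of 6 in each, against 9.04% and 3.4%.

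For the other members no difference between the estrogens was called at this precision. The Pgr difference between ethinyl estradiol and equilin was -0.29 (CI -0.65 to 0.07), that between estradiol benzoate and equilin -0.18 (CI -0.54 to 0.18). Esr1 differed by 0.10 (CI -0.37 to 0.56) between ethinyl estradiol and equilin, and Gper1 by 0.54 (CI -0.06 to 1.14). On the brighter Esr2 probe the ethinyl estradiol arrays lay wholly below those of both other estrogens in deposited intensity. On the centred log2 scale they overlapped equilin (ethinyl estradiol array 3 at 0.522, equilin array 2 at 0.515). The differences were -0.25 (CI -0.58 to 0.07) from estradiol benzoate and -0.17 (CI -0.49 to 0.15) from equilin. The share of all probes without overlap is not given here for comparisons between estrogens. Between tamoxifen and raloxifene limma called 0 of 6 member probes, against 0.00407% of all probes, and 0 of 6 had an unadjusted p under 0.05, against 13.4%. The differences ran from -0.38 (CI -0.82 to 0.06) for Esr2 probe 2 to 0.08 (CI -0.44 to 0.59) for Oxtr. These intervals allow differences of up to 0.82 on the log2 scale, so the 2 SERMs were not shown to act alike. Estrogens and SERMs were given at different doses, and their values are set side by side only.

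Around these genes, lists of related receptors, of receptor coregulators and of estrogen-responsive genes from other tissues held 82 genes, of which 56 had a tested probe. Under ethinyl estradiol, 1 of 26 tested responsive genes rose and 2 fell, where 1.2% of all tested probes were called. None of the 23 tested coregulators or 7 related receptors was called. Hspb1, a small heat shock protein of smooth muscle, rose from 6.66 ± 0.39 (centred log2, SD, n = 4) to 7.62 ± 0.20 (SD, n = 3), a change of 0.96 ± 0.20 (SE; limma adjusted p = 0.0271). Igfbp5, a binding protein of insulin-like growth factors, fell by 0.92 ± 0.20 (SE; adjusted p = 0.0301). Lcn2, an iron-binding acute phase protein, fell by 0.73 ± 0.18 (SE; adjusted p = 0.0484), a call that ended when any 1 of 16 of the 20 arrays was left out. The Hspb1 and Igfbp5 calls ended without any 1 of 4 and 5 arrays. The median of the list was -0.17 against -0.05 for all tested probes.

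Under equilin Hspb1 moved the other way. It fell by 0.89 ± 0.20 (SE; adjusted p = 0.0202), to 5.77 ± 0.17 (SD, n = 3). Prlr, the prolactin receptor, rose by 1.059 ± 0.27 (SE; adjusted p = 0.0362), from -0.61 ± 0.19 (SD, n = 4) to 0.45 ± 0.32 (SD, n = 3). Nr3c2, the mineralocorticoid receptor, fell by 0.62 ± 0.17 (SE; adjusted p = 0.048). So 1 of 26 responsive genes rose and 1 fell, with a list median of -0.19 against -0.17 for all probes, and 1 of 7 related receptors fell. Of the coregulators 0 of 23 were called, and of all tested probes 3.69%. Without the regularly spaced probes the adjusted p of Prlr and Nr3c2 were 0.0587 and 0.0708. The Nr3c2 call ended without any 1 of 17 arrays, the Prlr and Hspb1 calls without any 1 of 4.

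Under estradiol benzoate 1 of 26 responsive genes rose: Inhbb, the inhibin and activin subunit βB, by 0.86 ± 0.18 (SE; adjusted p = 0.0435, and 0.3 without the regularly spaced probes). Leaving out any 1 of 17 arrays ended that call. Of all tested probes 0.7% were called under estradiol benzoate, and 0 of 23 coregulators and 0 of 7 related receptors. Raloxifene raised 1 of 23 coregulators, the corepressor Ncor1, by 0.78 ± 0.19 (SE; adjusted p = 0.0471), and 1 of 7 related receptors, the progesterone receptor membrane component Pgrmc1, by 1.34 ± 0.30 (SE; adjusted p = 0.0386). Without raloxifene array 3 the changes were 0.55 and 0.98, with adjusted p of 0.208 and 0.171, and the calls also ended on leaving out other arrays, any 1 of 15 in all for Ncor1 and of 11 for Pgrmc1. Of the responsive genes 0 of 26 were called under raloxifene, and of all tested probes 2.04% (0.057% without raloxifene array 3). Under tamoxifen limma called 0 of the 56 genes, against 0.224% of all probes. There, 2 of 7 related receptors, 3 of 23 coregulators and 5 of 26 responsive genes had an unadjusted p under 0.05, against 8.97% of all probes. With the array set as a block the calls against vehicle all had an adjusted p of 0.0597 or more.

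Between estrogens and SERMs, which lie in different array sets, 18.7% of all tested probes were called, and the shares of the responsive genes and coregulators lay near that. Of the responsive genes, 4 of 26 were higher under estrogens and 2 lower, led by Igfbp4, a binding protein of insulin-like growth factors, higher by 0.96 ± 0.15 (SE; limma adjusted p = 0.000283). Of the coregulators, 5 of 23 were lower, led by Fkbp5, a glucocorticoid-induced cochaperone, with a change of -1.08 ± 0.19 (SE; adjusted p = 0.00105). Of the related receptors, 1 of 7 was higher (Rara, the retinoic acid receptor α, 0.47 ± 0.13, SE) and 2 were lower, Pgrmc1 at -0.75 and Nr3c2 at -0.37. With the array set as a block all of these had an adjusted p of 1. The size of the change then stood at 0.82 for Igfbp4, -0.78 for Fkbp5, -0.53 for Pgrmc1, -0.25 for Nr3c2 and 0.10 for Rara. Other called genes moved either way. The change went from -0.82 to -0.002 for Stub1, from -0.50 to -0.02 for Carm1 and from -0.47 to -0.02 for Hspb1. It grew from -0.50 to -1.01 for Ramp3 and from 0.49 to 0.70 for Inhbb.

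Genes whose profile over the 20 arrays was most like each member are given as a description. For Oxtr they were Tsnaxip1, Mas1 and Pdlim7 (Pearson r of 0.836, 0.829 and 0.819 among 13259 probes compared), and with the group means taken out r was 0.725, 0.878 and 0.819. Mas1 encodes the receptor for angiotensin-(1-7). For Pgr they were Dlgap2, Hif3a and Cmklr1 (r of 0.835, 0.834 and 0.819), for Esr1 Lrrk1, Cbx6 and Gnb2 (0.819, 0.783 and 0.745), for the brighter Esr2 probe Nlrx1, Gdap1 and Troap (0.885, 0.871 and 0.845), and for Gper1 Afg1l, Tmf1 and Gprc5c (0.861, 0.857 and 0.855). The points of each correlation share the array, its scaling and its set, and most of the likeness remained within groups.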

How the data were processed

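The authors deposited linear intensity values for 35129 probes on 20 arrays, background-subtracted and scaled for each array. A GenePix 4000B scanner, GenePix Pro 5.0, CodeLink Expression Analysis, Acuity 3.1 and GeneSpring 7.1 are named in the submitters' design text; no source used here says which program made the values. Values were floored at 0, raised by an offset of 0.103 (0.1 times the median), log2-transformed and centred on each array's median. Because of the offset, a log2 change understates that of dim probes. Tests covered 24562 probes, without 40 that had missing values and the lowest 30% by mean, in limma 3.58.1 (R 4.3.3), with 1 mean per group over all 20 arrays and moderated variances that follow intensity. Benjamini-Hochberg adjustment ran over all tested probes. The script was checked on simulated data. The number of arrays limits the precision. Members, lists and tests were chosen with earlier results of these data known. All member probes were named; from each list, genes that passed (up to 4 per comparison with vehicle, by size), each by its brightest complete probe; and for each member the 3 genes most correlated with it. The genes named in the class comparison were chosen after their values were seen. Alternatives were another normalisation, offsets, filters and variance settings, array weights, blocks for replicate number and array set, and leaving out each array; leaving out the regularly spaced probes was added after seeing the data.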

Additional observations from a re-analysis of the deposited data

How the results depend on the processing

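No result changed direction while called. Counts are member probes called, of 6 tested. Under equilin the count of 1 became 0 when only the groups compared were fitted, with the replicate block, with the array set block, without the regularly spaced probes (chosen after seeing the data) and with the lowest 50% left out, where Esr2 probe 1 was the only member probe still tested; it was 2 (Pgr and Oxtr) with array weights, a setting that called 30.8% of all probes. Leaving out 1 array gave 0 to 1. For ethinyl estradiol against equilin the count of 1 became 0 under quantile normalisation, the smaller offset, no filter, the lowest 50% left out, only the groups compared, the replicate block and the array set block, and was 0 to 1 when 1 array was left out. For any compound it became 0 with the lowest 50% left out and with the array set block, and 0 to 1 when 1 array was left out. For estrogens against SERMs the count of 0 became 2 with array weights (Gper1 and Oxtr; 42.7% of all probes called), and 0 to 1 when 1 array was left out (1 without ethinyl estradiol array 3). With array weights estradiol benzoate against equilin went from 0 to 2 (Pgr and Oxtr; 18.4% of all probes called), and tamoxifen against raloxifene from 0 to 1 (Esr2 probe 2; 6.44%). Apart from the calls lost or gained by construction (fewer probes or arrays), the cause was not tested. The replicate numbers did not pair the rats: deviations of same-numbered arrays correlated at -0.003 on average over 46 pairs, against 0.001 for 120 others. With the replicate block the Oxtr change under equilin was 0.90 (adjusted p = 0.0789). The other comparisons kept a count of 0 in every setting run. Dim signal limits Nrip1 and the second probes of Esr1, Pgr and Oxtr.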
